A study of Amaranthus powellii with 13 samples.

Results

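The leaf response to MCPA in population 511 of green pigweed (Amaranthus powellii) was measured in 6 plants, 3 treated (ST) and 3 untreated (SU), out of 12 plants with short-read RNA sequencing. The plants were assigned to ST and SU from their labels. Population 511 is susceptible to MCPA, and the other 6 plants belong to the resistant population 501, 3 treated (RT) and 3 untreated (RU). Treated plants of both populations were sprayed with MCPA at 1225 g a.e. per ha, untreated plants received no MCPA, and leaf number 4 was cut from every plant 6 h after application. Each library came from a single plant, and the plants were picked for extraction after survival had been scored. The ST plants carry the numbers S13, S16 and S112 in their labels, and the SU plants the numbers S12, S14 and S116.

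MCPA is a synthetic auxin of the phenoxy-carboxylate class. Auxins bind F-box receptors of the TIR1/AFB family together with Aux/IAA repressors. The repressors are then degraded, and auxin response factors become free to act on their target genes. Targets known from model plants include the Aux/IAA genes themselves, the GH3 enzymes that conjugate auxin, the small SAUR proteins and ACS, the enzyme that makes the precursor of ethylene. The files do not pair gene model identifiers with gene names, so these families could not be counted, and the leaf could not be checked against marker genes. Gene models are described below by their values and by their place on the chromosomes. In bulk leaf RNA, fewer cells of a type and less RNA per cell cannot be told apart.

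Reads were counted in 2 ways. The reference-based alignment gave counts for 23820 gene models of the related smooth pigweed, of which 16304 passed the filter on low counts and were tested. In the de novo alignment, counts were given for 58227 open reading frames (ORFs) on 37218 transcripts built from long reads of susceptible leaves. ORFs on the same transcript held identical counts, so the first ORF of each transcript was used as a check, and 36678 transcripts were tested. Total counts in the 6 plants ran from 22755345 to 29536097 over gene models and from 32542476 to 42665798 over transcripts. Each plant had at least 1 count in 17520 to 17887 gene models.

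The libraries of ST S13 and SU S116 stood apart from the others of their groups. Over gene models, log2 CPM (counts scaled to the library size) of ST S13 correlated with those of its nearest library at 0.884, and SU S116 with its nearest at 0.914. The SU plants S12 and S14 correlated at 0.976, and the ST plants S16 and S112 at 0.949. ST S13 and SU S116 correlated with each other at 0.875, above the 0.861 between ST S13 and ST S112 of the same group. The main counts of calls by direction, size, abundance and neighbours are therefore given with and without both plants. The other counts below are from all plants unless stated.

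Gene models differed between treated and untreated leaves in both directions at 6 h, and the largest changes were increases. Of the gene models tested, 748 (4.59%) were called differentially expressed between ST and SU, with 562 (3.45%) higher and 186 (1.14%) lower in ST. A call required an adjusted p under 0.05 from edgeR's quasi-likelihood test, with Benjamini-Hochberg adjustment over all gene models, together with a fold change beyond 2 on the log2 scale in either direction. These p-values rest on the spread between individual plants within groups, estimated from all 12 libraries of both populations together. Without ST S13 and SU S116, 669 gene models were called, 448 higher and 221 lower. The 2 fits shared 489 calls, 376 higher and 113 lower, and of the gene models called in either fit 8 had estimates of opposite sign. With library totals in place of TMM scaling factors, 718 were called higher and 131 lower, and the median log2 fold change of all gene models moved from 0.02 to 0.28. A fit of the 6 libraries of population 511 alone, with the spread taken from these plants only, called 334 gene models, 284 higher and 50 lower.

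The balance of directions depended on the size of the change. At an adjusted p under 0.05 with no fold limit, 3528 gene models (21.6%) differed, 1879 higher and 1649 lower in ST, so 53.3% were higher. Between log2 fold changes of 1 and 2 in size, more gene models were lower (694) than higher (475). Beyond 2 the share higher was 75.1%, beyond 3 it was 85.9%, and beyond 5 it was 94.8%, with 110 higher and 6 lower. Beyond a log2 fold change of 8, 14 gene models were higher and 0 were lower. Without both plants the share higher beyond 2 was 67.0%, and beyond 5 it was 84.1%, with 95 higher and 18 lower, and 3 gene models were lower by more than 8.

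**Figure D1:**
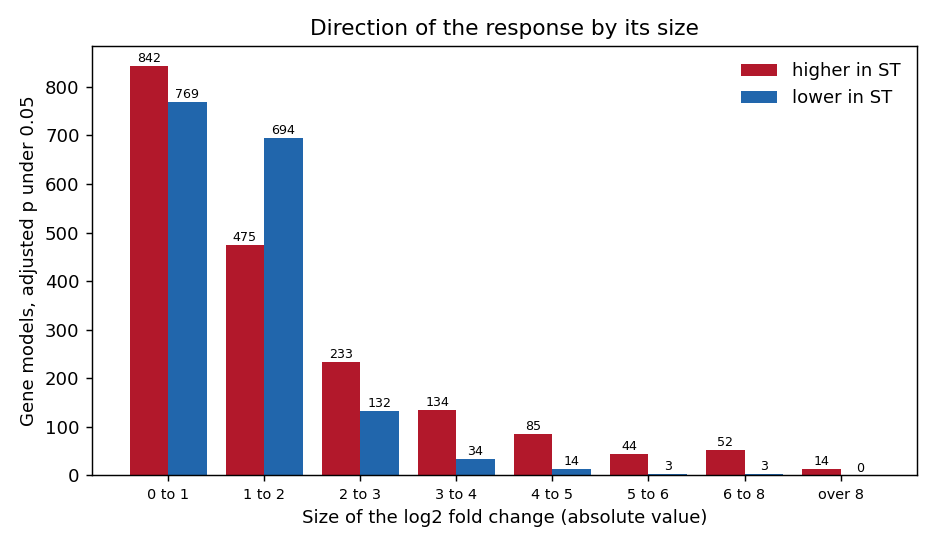
Number of gene models with an adjusted p under 0.05 (vertical axis) by the absolute size of the log2 fold change between ST and SU (horizontal axis), with bars for those higher and those lower in ST. Lower gene models outnumbered higher ones only between 1 and 2 (694 against 475), and beyond 8 the counts were 14 and 0.

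Among the de novo transcripts, increases also made up more of the larger changes. Of the transcripts tested, 1404 (3.83%) were called, 974 (2.66%) higher and 430 (1.17%) lower in ST. The share higher was 50.7% with no fold limit, 47.6% beyond a log2 fold change of 1, 69.4% beyond 2, 86.0% beyond 3 and 96.2% beyond 6. With library totals alone, the share higher beyond 2 was 81.1%, with 1159 higher and 270 lower. Without ST S13 and SU S116 it was 62.5%, with 846 higher and 507 lower. Leaving out ST S112 gave the most calls in both alignments, with 292 gene models and 707 transcripts lower in ST.

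Most called gene models kept the groups apart plant by plant. All 3 ST plants lay above all 3 SU plants in 2884 of the gene models tested (17.7%), and below them in 2645 (16.2%). Among the gene models called higher, 528 of 562 had no overlap of the groups, and among those called lower 166 of 186. These lists were called on the same plants by a test and a fold limit, a choice that favours groups without overlap. The median log2 fold change was 3.27 in the gene models called higher, with the middle part of the list between 2.58 and 4.57 (quartiles). In the gene models called lower it was -2.54, with quartiles of -3.17 and -2.22. Over all gene models tested the median was 0.02, with quartiles of -0.43 and 0.42.

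The 3 treated plants were not at the same levels in the gene models called. These lists were called with ST S13 in the fit, and without it 440 gene models were called higher. ST S13 had the highest level of the ST plants in 369 of the 562 gene models called higher, against 77 for S16, with S112 highest in the rest. Its median level in these gene models was 3.68 above the SU mean on the log2 scale, while S16 was at 2.71 and S112 at 2.57. In the 974 transcripts called higher the plants were closer, with medians of 3.38, 2.88 and 2.91 for S13, S16 and S112. There ST S13 was the highest ST plant in 527 and the lowest in 354. In the 186 gene models called lower, ST S13 was the lowest ST plant in 102, and the medians of S13, S16 and S112 against the SU mean were -2.95, -2.38 and -2.08. In both sets of gene models, the SU plants stayed within 0.10 of their mean by this median.

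By the median, levels in SU were lower in the gene models called higher than in those called lower. Gene models called higher had a median level of 1.44 CPM in SU and 18.4 CPM in ST, and 243 of the 562 were at or under 1 CPM on average in SU. Gene models called lower went from a median of 16.5 CPM in SU to 2.28 CPM in ST. The transcripts gave like levels, 2.48 CPM in SU and 29.2 CPM in ST for those called higher, and 16.8 and 2.64 CPM for those called lower. In 64 gene models called higher, the SU mean was under 0.1 CPM. The SU level enters the fold change that made these lists, so a low start is favoured among those called higher and a high start among those called lower. SU levels of all gene models tested were not set beside these values. Whether increases started lower than the choice by fold change alone would give was not tested.

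Full absence in one group was rare among the calls. Of all gene models, 4888 had a count of 0 in every SU plant, 4651 in every ST plant and 4113 in all 6 plants. Of those at 0 in every SU plant, 35 passed the filter, through other libraries, and were tested, and 11 were called higher. Against a floor of 3 counts in each SU library, these 11 were at least 2.56-fold to at least 20.9-fold higher in ST, a bound that covers counting error only. Of those at 0 in every ST plant, 19 passed it through other libraries, and 1, Ah.14g087260, was called lower, at least 9.82-fold on the same floor. It was named after its values were seen.

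The gene model with the highest log2 fold change among those of at least 1 CPM, with groups that did not overlap, was Ah.02g125690 on chromosome 2. Its levels were 2030 CPM in ST S13, 2030 CPM in S16 and 2240 CPM in S112, and 2.03 CPM in SU S12, 0.272 CPM in S14 and 0.0938 CPM in S116. The ST plants were close to each other and far above every SU plant. The mean was 2100 ± 122 CPM (SD, n = 3) in ST and 0.799 ± 1.07 CPM (SD, n = 3) in SU, and the log2 fold change was 11.39 (SE 1.03, edgeR adjusted p = 9.62e-05). The SU levels rest on 48, 6 and 3 counts. The treated plants of population 501 held 1270 to 2010 CPM and the untreated ones 0.201 to 0.653 CPM, and the responses of the populations differed by -0.59 on the log2 scale (SE 1.07, edgeR adjusted p = 1).

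Second came Ah.04g149780 on chromosome 4. It was at 99.7, 509 and 771 CPM in ST S13, S16 and S112, and at 0.508, 0.0453 and 0.0313 CPM in SU S12, S14 and S116. The groups did not overlap, but the ST plants were far more spread than for the gene model of chromosome 2, with ST S13 the lowest. Its log2 fold change was 11.25 (SE 1.23, edgeR adjusted p = 0.000296), and the SU levels rest on 12, 1 and 1 counts.

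The lowest log2 fold changes by the same rule belonged to Ah.03g134450 and Ah.02g111270. Ah.03g134450 on chromosome 3 was at 0.0996, 0.979 and 0.0363 CPM in ST S13, S16 and S112, and at 4.28, 30.1 and 21.3 CPM in SU S12, S14 and S116. Its log2 fold change was -5.64 (SE 1.05, edgeR adjusted p = 0.00453), and it missed the threshold in the fit of population 511 alone (adjusted p = 0.0624). Ah.02g111270 on chromosome 2 was at 1.1, 4.2 and 1.09 CPM in ST, and at 75.7, 111 and 42.1 CPM in SU, in the same order of plants. Every SU plant was well above every ST plant, and the log2 fold change was -5.16 (SE 0.62, edgeR adjusted p = 0.000497). In population 501 the log2 fold changes of these 2 gene models were -5.51 and -5.28.

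**Figure D2:**
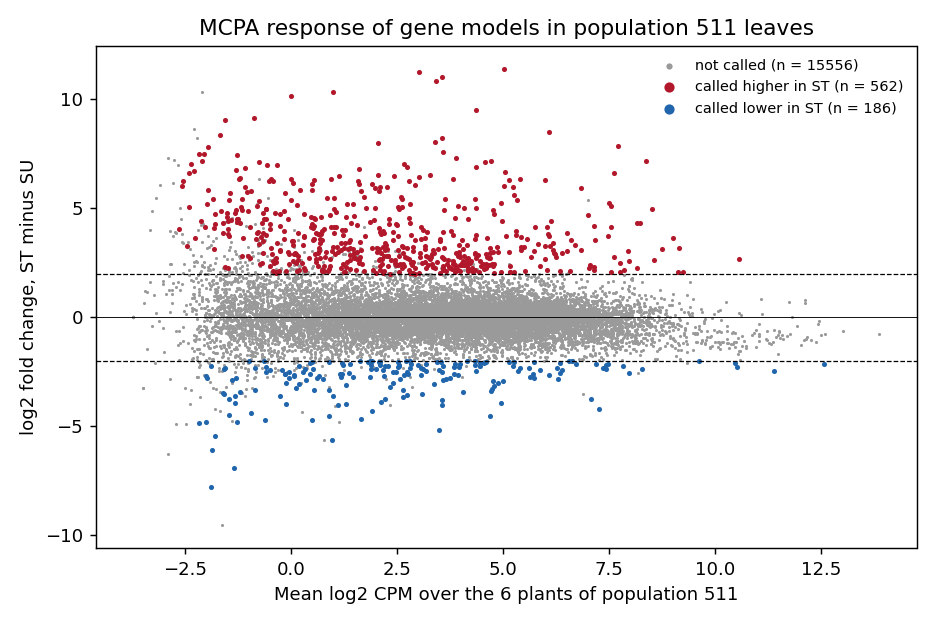
Log2 fold change between ST and SU (vertical axis) of each of the 16304 gene models tested against its mean log2 CPM over the 6 plants of population 511 (horizontal axis), with dashed lines at 2 and -2. The 562 gene models called higher reach 11.39, the 186 called lower lie mostly between -2 and -5, and points at the right end lie mainly below 0.

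In the de novo alignment the same rule named 4 transcripts. Transcripts 223832 and 410537 had log2 fold changes of 11.67 (SE 0.98, edgeR adjusted p = 4.9e-05) and 11.49 (SE 0.89, edgeR adjusted p = 2.93e-05). Transcript 223832 was at 425, 411 and 453 CPM in ST S13, S16 and S112, and at 0.379, 0.0296 and 0 CPM in SU S12, S14 and S116. Transcript 410537 was at 397, 388 and 433 CPM in ST and at 0.379, 0.0592 and 0 CPM in SU. Both were nearly silent in SU and even across the ST plants, and how reads shared by near-identical transcripts were counted is not given in the sources used here.

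Transcripts 546663 and 531102 had the lowest values. Transcript 546663 was at 26.6 and 30.9 CPM in SU S12 and S14 but at 0.810 CPM in SU S116, and at 0, 0 and 0.396 CPM in ST S13, S16 and S112. Its log2 fold change was -7.16 (SE 1.45, edgeR adjusted p = 0.00636). Transcript 531102 was at 1.40, 8.19 and 0.630 CPM in SU and at 0.0981, 0 and 0 CPM in ST, with a log2 fold change of -6.55 (SE 1.53, edgeR adjusted p = 0.0267). In both transcripts SU S116 was the lowest SU plant. Neither passed the threshold in the fit of population 511 alone, and transcript 531102 missed it also without any single ST plant, with adjusted p-values of 0.0611 to 0.0763.

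A few auxin-related features could be matched to an identifier that the study names. The identifier of ACS in the study is printed a digit short, and Ah.12g051890 was the only gene model that begins with it. ACS, which makes the ethylene precursor, was at 25.2, 5.07 and 8.45 CPM in ST S13, S16 and S112, and at 20.9, 15.8 and 40.8 CPM in SU S12, S14 and S116. The groups overlapped through ST S13, and the log2 fold change of -1.0 did not pass the test (SE 0.53, edgeR adjusted p = 0.203). Without ST S13 it was -1.94 (adjusted p = 0.00946), and without both plants that stand apart it was -1.44 (adjusted p = 0.00822). The ACS transcript of the de novo alignment gave -0.95 (SE 0.55, edgeR adjusted p = 0.24) with all plants.

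In the de novo alignment, the transcript of the F-box protein At3g23880 was at 15, 12.8 and 11.2 CPM in ST and at 5.92, 12 and 13.6 CPM in SU, so the groups overlapped. Its log2 fold change was 0.30 (SE 0.42, edgeR adjusted p = 0.642). The transcript of the auxin-repressed protein that the study names, whose name comes from a gene that auxin lowers, was at 262, 273 and 253 CPM in ST and at 141, 139 and 103 CPM in SU. It was higher in every ST plant, by 1.04 on the log2 scale (SE 0.20, edgeR adjusted p = 0.0054), which is under the fold limit, and it missed the threshold in the fit of population 511 alone (adjusted p = 0.0614). In population 501 its log2 fold change was 2.68, and the difference of the populations did not pass the test (-1.64, SE 0.29, edgeR adjusted p = 0.0913).

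The gene models called higher took up a large share of the treated transcriptome. They held 9.50%, 7.91% and 7.24% of all counts in ST S13, S16 and S112, and 0.518%, 0.573% and 0.590% in SU S12, S14 and S116. The mean share was 14.7-fold higher in ST (8.21% ± 1.16 against 0.560% ± 0.0374, SD, n = 3). The gene models called lower held 0.615%, 1.07% and 1.12% of the counts in ST, and 4.21%, 4.41% and 3.09% in SU, for means of 0.933% ± 0.277 and 3.90% ± 0.713 (SD, n = 3). These shares describe the lists, which were called on the same plants. For the transcripts called, the shares were 8.67% ± 0.683 in ST and 0.537% ± 0.0359 in SU for those higher, and 0.902% ± 0.291 and 3.80% ± 0.641 for those lower (SD, n = 3).

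The 6 plants of population 501 gave the same measure in libraries that did not enter the fit of population 511 alone. The 284 gene models called higher in that fit held 5.61% ± 0.0984 of the counts in RT and 0.525% ± 0.0245 in RU (SD, n = 3). The 50 called lower held 0.0911% ± 0.0191 in RT and 0.402% ± 0.0351 in RU (SD, n = 3). Neither pair of groups overlapped, and the 2-sided exact permutation test gave p = 0.1 for each, the smallest value that 3 plants against 3 allow.

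**Figure D3:**
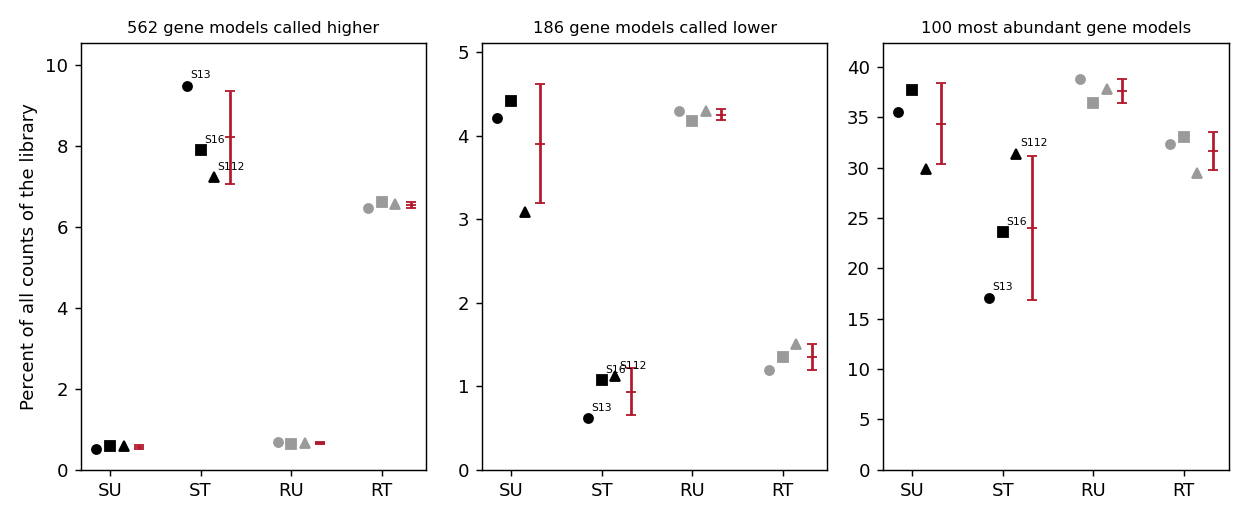
Percent of all counts of each library (vertical axis) held by the gene models called higher, those called lower and the 100 most abundant ones, for the plants of SU, ST, RU and RT. Points are plants (black for population 511, grey for 501, ST plants labelled) and red bars are mean ± SD. The share of the gene models called higher is 7.24% to 9.50% in ST and at most 0.590% in SU, and for the 100 most abundant gene models ST S13 is the lowest of all plants, at 17.1%.

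Few gene models carried most of the gain and fewer still the loss. Of the gain in CPM over the gene models called higher, the leading one held 6.42%, the leading 10 held 35.5% and the leading 50 held 72.4%, and 19 were needed to pass 50% of it. The largest gain was on chromosome 2, in a gene model at 2290, 4040 and 6150 CPM in ST S13, S16 and S112, and at 31.5, 22.3 and 32.6 CPM in SU (log2 fold change 7.17, SE 0.43, edgeR adjusted p = 6.44e-06). Of the loss over the gene models called lower, the leading one held 31.9%, the leading 2 held 49.0%, and 3 were needed to pass 50% of it. This leading one, on chromosome 4, was at 16100, 15800 and 8150 CPM in SU S12, S14 and S116, and at 1990, 3370 and 3810 CPM in ST (log2 fold change -2.12, SE 0.37, edgeR adjusted p = 0.0031). In each of these, all ST plants lay on one side of all SU plants. In the fit of population 511 alone the leading gain kept its call (edgeR adjusted p = 0.00545), but the leading loss did not (edgeR adjusted p = 0.063), and neither did any of the 4 next largest losses. The leading loss held its call without ST S13 and SU S116 (edgeR adjusted p = 0.000779), where 3 gene models were again needed to pass 50% of the loss.

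The direction of the response also varied with abundance, taken as the mean over the 6 plants. Among gene models of under 1 CPM, 6.81% were called higher and 2.21% lower. The lowest gene models of this class can pass the filter only through the libraries where they are high, so its shares depend in part on the filter. From 10 to 100 CPM the shares were 2.05% and 0.672%. Among the 92 gene models of 1000 CPM or more, 1 was called higher and 4 lower. The share passing the adjusted p alone was 10.5% under 1 CPM, 32.5% between 100 and 1000 CPM and 25% at 1000 CPM or more, while the median SE of the log2 fold change was 0.89, 0.20 and 0.37 in these classes. Of the gene models between 100 and 1000 CPM that passed, 168 were higher and 269 lower, and at 1000 CPM or more 2 were higher and 21 lower. Without ST S13 and SU S116 these counts were 167 and 325, and 4 and 36. In the de novo alignment, 0 of 47 transcripts of 1000 CPM or more were called higher and 3 lower. The share of transcripts passing the adjusted p alone was 11.3% under 1 CPM, 30.0% from 10 to 100 CPM, 28.9% from 100 to 1000 CPM and 12.8% at 1000 CPM or more.

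The most abundant gene models thus had mostly lower estimates in ST. Of the 100 most abundant gene models, 85 had an estimate below 0, with a median log2 fold change of -0.90, against 0.02 over all gene models. Over all 16304 gene models tested, 1649 were lower and 1879 higher at an adjusted p under 0.05. The ST plants lay below all SU plants in 16.2% of all gene models tested, and above them in 17.7%. Of the 100, 23 were lower and 5 higher at this limit. In 41 of the 100 every ST plant was below every SU plant, and in 7 above. Without both plants that stand apart, 86 were below 0, with a median of -0.79, and 35 were lower and 7 higher by the test.

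These levels were uneven across the treated plants. As a share of all counts, with no scaling factor, the 100 most abundant gene models held 17.1% in ST S13, 23.6% in S16 and 31.4% in S112, and 35.5%, 37.7% and 29.9% in SU S12, S14 and S116. The groups thus overlapped, through ST S112 and SU S116. ST S13 was the lowest ST plant in 85 of the 100, and S112 the highest in 83. The most abundant of all, on chromosome 11, was at 4630, 10200 and 24000 CPM in ST and at 23700, 28400 and 15000 CPM in SU, and did not pass the test (log2 fold change -0.79, SE 0.52, edgeR adjusted p = 0.306). TMM factors were 1.28, 1.21 and 1.03 in ST S13, S16 and S112, and 0.959, 0.907 and 1.08 in SU S12, S14 and S116. The part of these factors and of the 2 plants in the result was not tested beyond the values given.

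The identifier of a gene model gives its chromosome and a serial number, which was taken as its order. Of the gene models tested, 16197 were placed on the chromosomes, and 558 of them (3.45%) were called higher and 183 (1.13%) lower. All of the 16 chromosomes held calls in both directions. The share called higher ran from 2.08% on chromosome 10 to 4.44% on chromosome 15, and the share called lower from 0.492% on chromosome 4 to 1.77% on chromosome 16.

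Gene models called higher lay next to each other more often than their share of all gene models. Of 415 called higher whose next serial number was also tested, 65 (15.7%) had a neighbour called higher, beside 3.45% of all placed gene models. At a distance of 2 the share was 8.74%, at 3 it was 5.84%, and from 4 to 10 it lay between 2.84% and 5.01%. Of 142 gene models called lower, 7 (4.93%) had a neighbour called lower, beside 1.13%. A neighbour called in the opposite direction was seen after 3 of the 415 called higher and 9 of the 142 called lower. Gene models called lower were followed by a higher call in 9 cases and by a lower one in 7. The base shares of the directions differ, at 3.45% and 1.13%, so these counts do not rank the directions. Without ST S13 and SU S116 these counts were 4 and 14. Without ST S13 and SU S116 the shares at a distance of 1 were 12.1% higher and 8.43% lower. That fit called 448 higher and 221 lower of 16398 gene models tested. In the fit of population 511 alone the shares were 11.9% higher and 0% lower (0 of 36). It called 284 higher and 50 lower of 15769 gene models tested, so its base shares were smaller. With so few called lower, 0 of 36 cannot show whether their neighbours were called lower in excess. Over all 12625 neighbouring pairs, Spearman's correlation of the log2 fold changes was 0.11, across gene models of the same libraries.

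**Figure D4:**
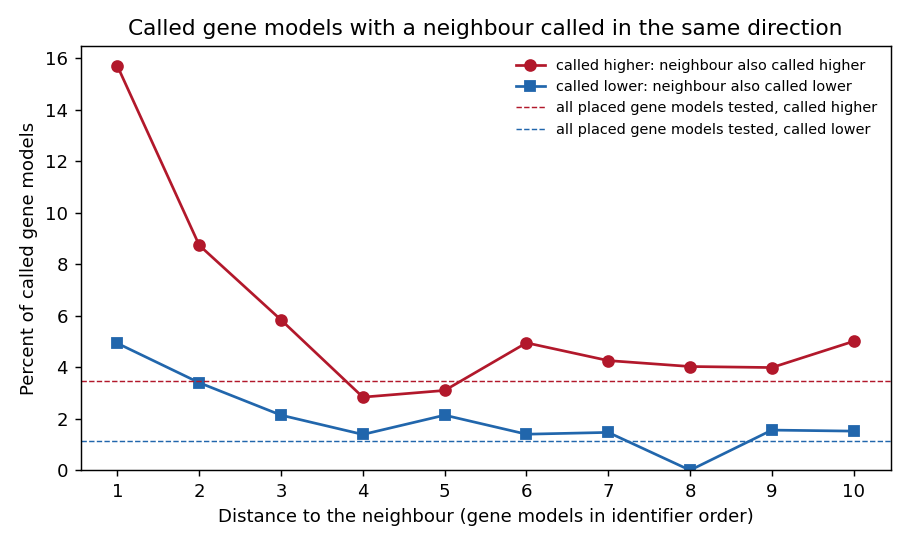
Percent of called gene models whose neighbour was called in the same direction (vertical axis) by distance in serial number, from 1 to 10 gene models (horizontal axis), with dashed lines for the share of all placed gene models called. The share for gene models called higher is 15.7% at a distance of 1, 8.74% at 2, and near the dashed line from 4 on.

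Runs of consecutive gene models called in the same direction were short. Of the placed gene models called higher, 440 stood alone, and 21.1% lay in 43 pairs, 8 runs of 3 and 2 runs of 4. Of those called lower, 170 stood alone, and 13 (7.10%) lay in 5 pairs and 1 run of 3. Without both plants, 17.6% of those called higher and 11.4% of those called lower lay in runs of 2 or more. The identity of the neighbours is not annotated here. Reads that near-identical adjacent copies share could be split or counted for each copy, since the handling of such reads is not given in the sources used here.

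The run of 4 on chromosome 4 had the largest changes, with log2 fold changes of 5.04 to 10.33. Its first member carried nearly all of the reads, at 438, 1420 and 1680 CPM in ST S13, S16 and S112, and at 29.3, 33.4 and 41.7 CPM in SU S12, S14 and S116. The third was at 7.97, 49.1 and 111 CPM in ST and at 0.0847, 0.0453 and 0 CPM in SU. The fourth was at 0.199, 4.02 and 3.23 CPM in ST and had no count in SU. Neither group overlapped the other in these members, and ST S13 was the lowest ST plant in each of the 3. Ah.04g149780, described above for its log2 fold change, lies 2 serial numbers after the end of this run. All 4 members were called also without ST S13 and SU S116.

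The run of 4 on chromosome 6 responded less and more evenly. Its log2 fold changes were 3.00 to 5.07, and its summed levels were 246, 159 and 185 CPM in ST S13, S16 and S112, and 18.2, 17.1 and 23.1 CPM in SU S12, S14 and S116. On chromosome 5, a run of 3 had summed levels of 761, 1220 and 1100 CPM in ST and 13.9, 9.28 and 7.88 CPM in SU, with log2 fold changes of 6.30 to 8.03. The members of this run did not follow the same plants. ST S13 was the lowest ST plant in the first (80.9 CPM, against 294 and 345 CPM in S16 and S112) and the highest in the third (354 CPM, against 79.6 and 148 CPM). A run of 3 on chromosome 1 had log2 fold changes of 3.61 to 3.82 and summed levels of 121, 76.1 and 127 CPM in ST and 10.5, 10.7 and 4.94 CPM in SU. These 3 runs kept all their calls without both plants, and the other 6 runs of 3 lost at least 1.

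**Figure D5:**
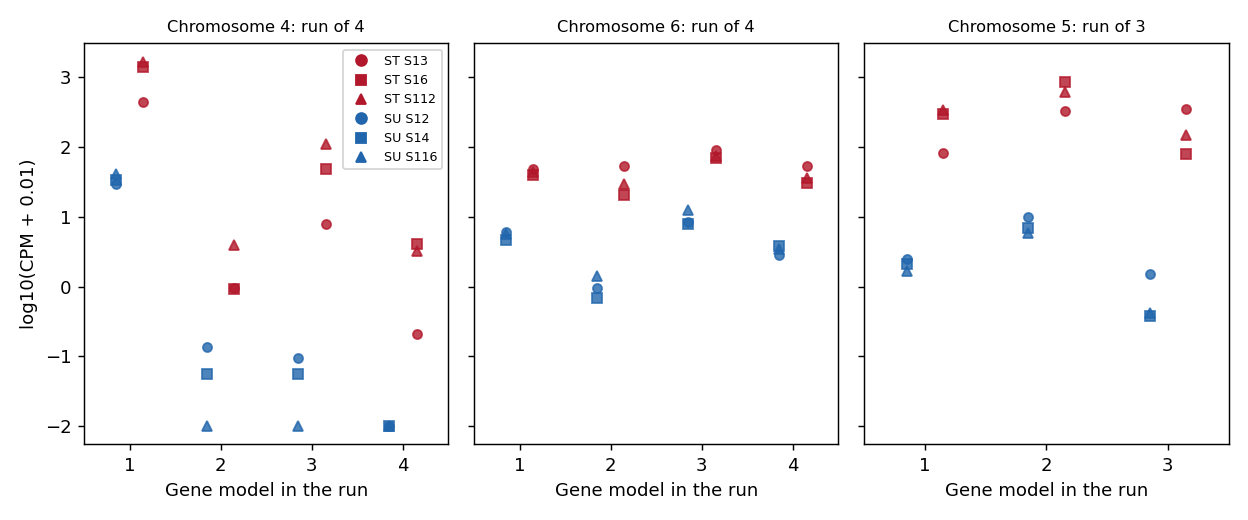
Level of each gene model in 3 runs of neighbours called higher, as log10 of CPM plus 0.01 (vertical axis), by its place in the run (horizontal axis), with red for ST, blue for SU and a symbol for each plant. ST lies above SU in every member, and the lowest blue points, at -2, are counts of 0.

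The single run called lower, 3 gene models on chromosome 1, rested on part of the SU plants. Its summed levels were 147 and 201 CPM in SU S12 and S14 but 22.0 CPM in SU S116, and 17.7, 27.8 and 27.2 CPM in ST S13, S16 and S112. SU S116 thus lay among the ST plants. The log2 fold changes were -2.52 to -2.21 with all plants, and -2.70 to -2.62 without ST S13 and SU S116.

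The response of population 511 was also set against that of population 501, as the difference of their log2 fold changes in edgeR. Of the 16304 gene models tested, 1000 had an unadjusted p under 0.05, a limit that a share of 0.05 passes when none differ. By an adjusted p under 0.05, 2 gene models (0.0123%) differed. Both were named after their values were seen. Ah.13g071330 on chromosome 13 was at 240, 254 and 325 CPM in ST S13, S16 and S112, and at 4.66, 4.62 and 7.35 CPM in SU S12, S14 and S116, while RT held 249 to 276 CPM and RU 35.8 to 43.7 CPM. Treated plants of both populations thus reached like levels, from a lower untreated level in population 511. Its log2 fold change was 5.62 in population 511 and 2.69 in 501 (difference 2.92, SE 0.28, edgeR adjusted p = 0.00841).

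Ah.11g047050 on chromosome 11 followed the same order, with 374, 167 and 316 CPM in ST, 1.61, 2.31 and 2.19 CPM in SU, 159 to 203 CPM in RT and 17.8 to 24.3 CPM in RU. The log2 fold changes were 7.13 and 3.10 (difference 4.03, SE 0.40, edgeR adjusted p = 0.00841). The number of gene models that differed was 51 without ST S13 and SU S116, 42 without ST S13, 1 without SU S116 and 0 without SU S12. Without SU S12 both named gene models had an adjusted p of 0.0583. In the de novo alignment 24 of 36678 transcripts differed by the adjusted p, and 2129 had an unadjusted p under 0.05.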

How the data were processed

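Leaf RNA of 12 plants was enriched for mRNA and sequenced after a stranded library preparation, and the sample labels gave the groups. The authors trimmed reads with fastp and aligned them with STAR to the smooth pigweed genome, and with Bowtie 2 to a transcriptome built from long reads of susceptible leaves, where featureCounts summarized them. Both deposited tables hold raw counts with no normalization. The sources used here do not give strand and multi-mapping settings, nor the tool that counted the reference-based reads.

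Counts were analysed with edgeR 4.0.16 in R 4.3.3: filterByExpr (minimum count 10, minimum total 15), TMM, glmQLFit with robust estimation on all 12 libraries with 1 mean per group, glmQLFTest for ST minus SU, and Benjamini-Hochberg adjustment. CPM use TMM-scaled library sizes, and correlations use log2 CPM with a prior count of 2. Each SE was derived from the test, as the absolute log2 fold change divided by the square root of its F statistic. Of the 37218 transcripts, 14644 carried more than 1 ORF, and 21009 repeated ORFs were left out. Scripts were tested on simulated data.

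Named features were the 2 highest and 2 lowest called log2 fold changes per alignment, among features with at least 1 CPM on average and groups that did not overlap, and the features the study names with an identifier that matched, or began that of, a single feature. The study's SAUR36 did not match a single feature and was not analysed here. The plants, lists and tests were chosen with earlier results of these data known. Alternatives were RLE, other filters, the 6 libraries of population 511 alone, leaving out plants, other fold limits, every ORF, and DESeq2 1.42.0 with and without apeglm 1.24.0. Library totals alone, the shares without the leading gene model, the leading changes in other fits and the repeats of the population difference were added after the data were seen. The long-read library was not analysed here.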

Additional observations from a re-analysis of the deposited data

Results flagged for a closer look

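The response to MCPA differed between populations 511 and 501 in 2 gene models by edgeR's interaction test. The difference of the log2 fold changes was 2.92 for Ah.13g071330 and 4.03 for Ah.11g047050, each larger in population 511, and in both the SU plants were below the RU plants while ST and RT overlapped. In the de novo alignment, 24 of 36678 transcripts differed by the same test.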

How the results depend on the processing

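Over gene models, 334 were called (284 higher, 50 lower) with the 6 libraries of population 511 alone, 3528 (1879 and 1649) with no fold limit and 1917 (1037 and 880) with a log2 limit of 1. Over transcripts these were 775 (629 and 146), 8903 (4516 and 4387) and 4483 (2133 and 2350), and 2130 ORFs (687 lower) were called with every ORF. With library totals alone 270 transcripts were lower. Leaving out each plant in turn gave 527 to 934 gene models (390 to 642 higher, 137 to 292 lower) and 1093 to 1784 transcripts (785 to 1077 higher, 308 to 707 lower).

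The gain in the share of counts was 7.65 percentage points for gene models called higher, and 6.42 in the fit of population 511 alone. The change for those called lower was -2.97, with -0.338 in the fit of population 511 alone, -3.71 without ST S13 and SU S116, -2.04 without the leading gene model, and -6.58 (without ST S112) to -1.41 (without SU S14) when each plant was left out. The share called among gene models of 100 CPM or more was 3.55%, with 2.44% in the fit of population 511 alone, and 2.41% (without ST S13) to 5.37% (without ST S112) when each plant was left out. The share of gene models called higher with a neighbour called higher was 15.7%, with 11.9% in the fit of population 511 alone and 12.1% without both plants. These 2 fits also called fewer gene models higher, 284 and 448 against 562. The cause of these changes was not tested.

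The number of gene models that differed between populations was 2, with 51 without both plants and 0 to 42 when each plant was left out. The number of gene models called lower with a neighbour called lower was 7, with 14 without both plants, 0 in the fit of population 511 alone and 4 (without SU S12 or SU S14) to 12 (without ST S112) when each plant was left out. The counts of gene models and transcripts called stayed within 1.5 times the reported ones in the settings not named here. No reported fold change or share changed sign in these repeats. Among the named features, 4 repeats gained significance, all for ACS, and 8 lost it, all in the fit of population 511 alone or for transcript 531102 (adjusted p = 0.104 with DESeq2). No paired analysis was possible because the ST and SU plants share no plant number. Low counts limit the folds of gene models near 0 in SU.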
